A study of Mus musculus with 24 samples.

Results

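The 40 macrophage genes described here were taken as a fixed list of symbols and read in all 24 libraries. FPKM, fragments per kilobase of transcript scaled to library size, were summed over the RefSeq transcripts of each symbol. A row was found for 38 of the 40, out of 22282 genes in all, and Cd68 and Clec7a were not analysed here. All cells were of the C57BL/6J mouse strain, with 3 libraries in each of 8 groups. MACs are cells of amniotic fluid from mid-gestation embryos, grown in culture with unattached cells washed away, and Akt-MACs are MACs given a lentivirus for a constitutively active, myristoylated form of Akt. RACVECs are MACs given lentiviruses for the Ets factors Etv2, Erg and Fli1 and grown in endothelial medium with an inhibitor of TGF-β signalling. Akt-RACVECs carry the same 3 factors and the active Akt, and Sox17-RACVECs carry the same 3 factors and Sox17. Akt-LECs and Akt-liver ECs are lung and liver endothelial cells (ECs) isolated on CD31 beads, given the active Akt, cultured, and sorted again on VEcad and CD31. LSECs are liver ECs sorted straight from the animal, without culture, on VEcad and isolectin labelled in the circulation. Active Akt is therefore shared by Akt-MACs, Akt-RACVECs, Akt-LECs and Akt-liver ECs, and LSECs differ from every other group in not having been cultured.

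Macrophages are phagocytes of the myeloid lineage. They depend on the transcription factor PU.1 (gene Spi1) and on the receptor Csf1r, engulf particles through Fc, complement and scavenger receptors, and digest them with lysosomal enzymes and oxidants. Resident macrophages of each organ add genes of their own. Kupffer cells, the macrophages inside the liver sinusoids, are known for Clec4f, Vsig4, Timd4 and Cd5l, whereas monocytes newly come from blood are known for Ccr2 and Ly6c2.

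The deposited FPKM were used as log2(FPKM + 1) in limma, where calls needed an adjusted p under 0.05 and a log2 difference past 1 or -1. The adjustment ran over the 14964 genes averaging 1 FPKM or more. Of the 38 members with a row, 37 passed that mean and Cx3cr1 did not. Since fragment numbers were not used, depth is unknown, no detection limit follows from a value of 0, and no fold is given against a group at 0. Of 3751 genes with a median FPKM of at least 100, 80 were listed at 0 in some library. The transduced genes were read to check the labels. Etv2 was at 301 to 860 in RACVECs and at 0 in all MACs and Akt-MACs, but also at 0 in the library labelled Sox17-RACVEC 2, against 458 and 378 in the other 2 libraries of that group. Akt1 was at 551 to 692 FPKM in MACs and at 848 to 1279 in Akt-MACs, and limma did not call it (log2 difference 0.75, adjusted p = 0.092). Fli1, an Ets factor not given to these cells, was called higher in Akt-MACs than in MACs (log2 difference 3.67, limma adjusted p = 0.011).

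Macrophage genes were abundant in Akt-MACs and LSECs and scarce or at 0 nearly everywhere else. All 3 LSEC libraries held 37 or 38 of the 38 members at an FPKM of at least 1, with a summed FPKM of 26048 to 41689, or 1.12% to 1.83% of the library. Akt-MACs held 32, 37 and 37 members, but the libraries differed widely in level, with sums of 1771 in Akt-MAC 1, 26742 in Akt-MAC 2 and 75601 in Akt-MAC 3. The last is 3.52% of the library and the highest of the 24. MACs, the cells from which Akt-MACs were made, held 3 to 10 members and sums of 12.2 to 65.2. In bulk RNA, more macrophages and more RNA of these genes in each macrophage cannot be told apart.

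2 other libraries stood apart from the rest of their groups. Akt-LEC 1 and Akt-liver EC 1 each held 35 members, with sums of 3956 and 3167, whereas the other 2 Akt-LEC and 2 Akt-liver EC libraries held 8 to 10. The headers of their deposited values carry consecutive running numbers, unlike those of the other libraries of their groups. The headers of Akt-MACs are letters and those of MACs are names, and no batch is given in the labels, so handling and group cannot be told apart. Traces were also listed in Akt-RACVEC 1, which held 23 members with a median of 2.23 FPKM. Leaving out Akt-LEC 1, Akt-liver EC 1 and the Akt-MACs, the median member of the 16 other cultured libraries was at 0 except in Akt-RACVEC 1.

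**Figure D1:**
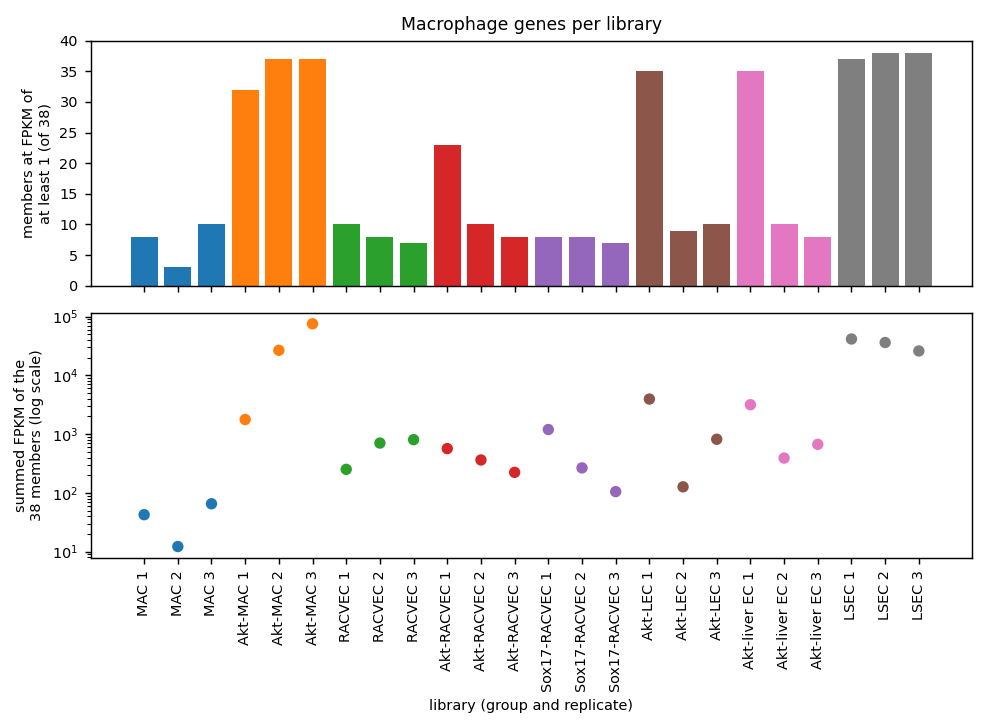
Number of macrophage genes at an FPKM of at least 1 (upper bars, of 38) and their summed FPKM (lower points, log scale) in each of the 24 libraries, each group in a colour of its own. The 3 Akt-MAC and 3 LSEC libraries hold 32 to 38 members, Akt-LEC 1 and Akt-liver EC 1 hold 35 each, and Akt-RACVEC 1 holds 23.

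Akt-MACs were compared with MACs to ask what active Akt alone does to amniotic cells. Of the 37 members tested, 30 were called higher in Akt-MACs and none lower, where 2.59% of all genes tested were called higher and 0.214% lower. None was lower at an unadjusted p below 0.05 either. Of the 38 members, 25 were at 0 in all 3 MAC libraries. In 33 of the 38, every Akt-MAC library was above every MAC library, as it was for 10.7% of all genes tested, and in 0 was it below them all, as for 4.19%. For the 13 tested members above 0 in some library of each group, the median log2 difference was 6.38, against 0.09 over all genes. The calls lean on the spread borrowed from the other groups and on the libraries: 9 members were called without Akt-MAC 3, 4 without Akt-MAC 2, 20 without MAC 1, 19 without MAC 2 and 34 without Akt-MAC 1. A fit of these 2 groups alone called none, although 32 of the members had an unadjusted p below 0.05 in it, and the criterion of the study's methods, a test on averaged FPKM with unequal variances, called 1.

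All 6 lineage genes tested were called higher in Akt-MACs than in MACs. Spi1 was at 0 in all 3 MAC libraries and at 11.4, 491 and 1150.5 FPKM in Akt-MACs 1 to 3 (adjusted p = 0.010). Adgre1, which encodes the surface receptor F4/80, was at 0 in MACs and at 56.6, 1648 and 4105 in Akt-MACs (adjusted p = 0.0029). Csf1r is the receptor for the macrophage growth factors Csf1 and Il34. It stood at 0.47 to 0.79 in MACs and at 13.5, 349 and 1161 in Akt-MACs. Its log2 difference in limma was 6.80 ± 1.5 (adjusted p = 0.019). The value after ±, here and below, is the SE from the fit of all 24 libraries. It is not a spread of the compared groups alone. No library of either group overlapped for these 3 genes, and Akt-MAC 1 was the lowest of the Akt-MACs each time. Mpeg1, a pore-forming protein of phagocytic vacuoles, rose from 2.09 to 2.67 FPKM in MACs to 18.7, 605 and 1603 (adjusted p = 0.049). Aif1, an actin-binding protein used as a macrophage stain under the name Iba1, and Ms4a7, a membrane protein of the Ms4a family, were at 0 in MACs. Aif1 reached 9.48, 325 and 681 and Ms4a7 reached 44.5, 1059 and 2698 in Akt-MACs. Cx3cr1, the fractalkine receptor of monocytes and many resident macrophages, was at 0.36, 3.17 and 1.43 in Akt-MACs, at 2.22 to 3.93 in LSECs and at 0 in MACs, and was the member left out of the test.

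The leukocyte receptors followed. Ptprc (CD45), carried by all white blood cells, was at 0 in MACs and at 4.37, 127 and 306 in Akt-MACs. Itgam and Itgb2 are the chains of complement receptor 3, an integrin of myeloid cells. Itgam was at 0, 0 and 0.28 in MACs and 8.39, 176 and 447 in Akt-MACs, and Itgb2 at 0 to 1.78 against 15.3, 332 and 851. All 3 were called higher in Akt-MACs.

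Among the Fc receptors and their adaptors, Tyrobp and Fcer1g had the highest FPKM in each Akt-MAC library. Tyrobp encodes DAP12, a signalling adaptor for Trem2 and other receptors, and Fcer1g encodes the chain through which Fc receptors signal. Tyrobp was at 0 in MACs and at 61.0, 1561 and 4566 in Akt-MACs (adjusted p = 0.010), and Fcer1g at 0 against 67.8, 1540 and 3589 (adjusted p = 0.0078). The IgG receptor Fcgr3 was at 0 in MACs and reached 18.6, 236 and 779, and the high-affinity receptor Fcgr1 was at 0 and reached 2.35, 27.8 and 65.4. Trem2, a lipid receptor that signals through DAP12, differed from these. It was above 0 in all MACs at 2.49 to 7.76, stood at 24.9, 531 and 1974 in Akt-MACs, and was not called (log2 difference 5.82 ± 1.58, adjusted p = 0.052).

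The 3 chains of complement C1q are made together and form a single recognition molecule. Their genes lie side by side on the minus strand of chromosome 4 in mm9, C1qb at chr4:136436044-136442102, C1qc at chr4:136445719-136448980 and C1qa at chr4:136451832-136454718. The gaps are 3.6 kb and 2.9 kb, with no other protein-coding gene between. All 3 were at 0 in every MAC library and were called higher in Akt-MACs, with C1qb at 54.8, 1154 and 2925, C1qc at 49.4, 1114 and 2985 and C1qa at 31.0, 465 and 1165. The level of C1qa was below that of C1qb and C1qc in each Akt-MAC library, whereas in LSECs it lay between them. The bases before the start of C1qb and C1qc are shown because these neighbours were high in the same libraries. They are from RefSeq on GRCm38.p6, minus strand, at chr4:136886201-136886450 and chr4:136892915-136893164, with capitals for the letters GAGGAA on either strand, a core of the sequence that PU.1 is known to bind.
C1qb: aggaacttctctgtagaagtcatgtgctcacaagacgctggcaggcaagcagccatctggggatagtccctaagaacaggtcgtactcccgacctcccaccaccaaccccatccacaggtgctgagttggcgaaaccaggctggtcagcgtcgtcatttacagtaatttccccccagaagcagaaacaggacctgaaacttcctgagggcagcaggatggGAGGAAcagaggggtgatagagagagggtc
C1qc: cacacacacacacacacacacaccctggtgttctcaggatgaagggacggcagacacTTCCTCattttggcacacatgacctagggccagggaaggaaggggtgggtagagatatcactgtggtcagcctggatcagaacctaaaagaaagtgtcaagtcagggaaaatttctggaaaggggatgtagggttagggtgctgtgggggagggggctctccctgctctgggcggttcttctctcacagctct
The C1qb match starts 30 bases before the gene's start and the C1qc match, on the opposite strand, 193 bases before it. Over the 250 bases before the start, GAGGAA on either strand was present for 15 of the 27 members in the RefSeq promoter table (55.6%) and for 25.9% of all 27025 genes in it. C1qa, the neighbour of C1qc that was high in the same libraries, is not shown and is not among the 15. The longer form GAGGAAGT, contained in the shorter, was present for 2 of the 27 (C1qc and Pf4, 7.41%) and for 2.79% of all genes. A match of letters is a description and shows no binding.

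All 4 lysosomal and antimicrobial genes were called higher in Akt-MACs than in MACs, and Lyz2 had the highest value of any member. Lyz2, the lysozyme of macrophages, was at 0 to 14.3 in MACs and at 708, 5939 and 21124 in Akt-MACs (log2 difference 10.14 ± 2.46, adjusted p = 0.031). Lyz1, the neighbouring copy best known from the Paneth cells of the gut, was at 0 in MACs and at 88.8, 784 and 2684 in Akt-MACs. Cathepsin S (Ctss), a protease of antigen processing, was at 0 and reached 49.0, 923 and 2338, and Laptm5, a lysosomal membrane protein of leukocytes, was at 0, 0 and 7.50 and reached 48.4, 1375 and 3460. The lysozyme pair must be read with care. Lyz2 lies at chr10:116714390-116719377 and Lyz1 at chr10:116724852-116729924 in mm9, 5.5 kb apart on the minus strand. Their coding sequences of 447 bases are 95.1% identical, with 22 differences, and share an unbroken run of 118 bases. The 90 coding bases with the most differences, bases 43 to 132 counted from the A of the start codon, are shown with the 13 differing bases in capitals.
Lyz1: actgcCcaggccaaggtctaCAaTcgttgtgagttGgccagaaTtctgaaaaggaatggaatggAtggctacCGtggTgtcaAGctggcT
Lyz2: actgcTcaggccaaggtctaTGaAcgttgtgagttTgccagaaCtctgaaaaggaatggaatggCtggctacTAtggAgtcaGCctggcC
Of all stretches of 51 bases in the Lyz1 and Lyz2 transcripts, the length of a read, 15.4% and 14.8% occur in the other gene, so reads there cannot be assigned to either. The FPKM of Lyz2 was 6.95 to 9.08 times that of Lyz1 in all 15 libraries with Lyz1 at 1 or more, with a median of 7.58, whether the library held macrophage genes or not. How far this near-constant ratio comes from shared reads was not tested. Of the 38 members, 32 share no such stretch with another gene, and Fcgr3 shares 12.6% of its stretches, mostly with the IgG receptor Fcgr2b.

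The phagocyte oxidase makes superoxide at the phagosome. Its catalytic chain Cybb was at 0 in MACs and at 7.45, 244 and 756 in Akt-MACs. The cytosolic subunits Ncf1 (10.9, 299 and 852) and Ncf4 (4.01, 158 and 451) were likewise at 0 in MACs, and all 3 were called. Rac2, the GTPase of the complex in blood cells, was at 0 in MACs and at 15.2, 517 and 1111 in Akt-MACs and was called higher. Cyba, named after its values were seen and the chain shared with many cell types, was not called, at 256 to 423 in MACs and 309, 720 and 1866 in Akt-MACs.

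The actin regulators Lcp1 (L-plastin) and Coro1a, which shape the leukocyte cortex, split in the test. Lcp1 was at 0 to 1.19 in MACs and 18.8, 553 and 1399 in Akt-MACs and was called. Coro1a was at 0 to 4.19 against 7.01, 194 and 361 and was not (adjusted p = 0.099). The fungal receptor Clec4n (Dectin-2) was at 0 against 47.4, 572 and 1154 and was called. Cd14, the co-receptor for bacterial lipopolysaccharide, was already at 6.83 to 20.3 in MACs and stood at 104, 229 and 577 in Akt-MACs, with no overlap but an adjusted p of 0.051.

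Genes of activation, migration and the liver gave mixed values. The co-stimulatory ligand Cd86 was at 0, 12.3 and 12.1 in Akt-MACs and was not called. Cd83, a marker of mature antigen-presenting cells, was called at 10.7, 20.2 and 26.5, against 0, 0 and 12.7 in MACs, with overlapping libraries. The granulocyte growth factor receptor Csf3r was at 0 in MACs and at 0.55, 17 and 31.6 in Akt-MACs. Ccr2, the receptor that draws monocytes out of the marrow, was called higher at only 0.78 to 1.64 in Akt-MACs, against 0 in MACs. It was at 0 in every other cultured library, which makes its fitted spread small. It passed the mean for testing only through LSECs, at 11.2 to 19.8, so its call carries little weight. Ccr1, a receptor for inflammatory chemokines, was not called. It was higher in Akt-MAC 1 (26.7) than in Akt-MAC 2 (21.6) and Akt-MAC 3 (7.50). Pf4, a chemokine of platelets and of embryonic macrophages, was at 0, 0 and 2.84 in MACs and at 113, 675 and 213 in Akt-MACs and was called. The Kupffer cell genes split, and are described with the LSECs.

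**Figure D2:**
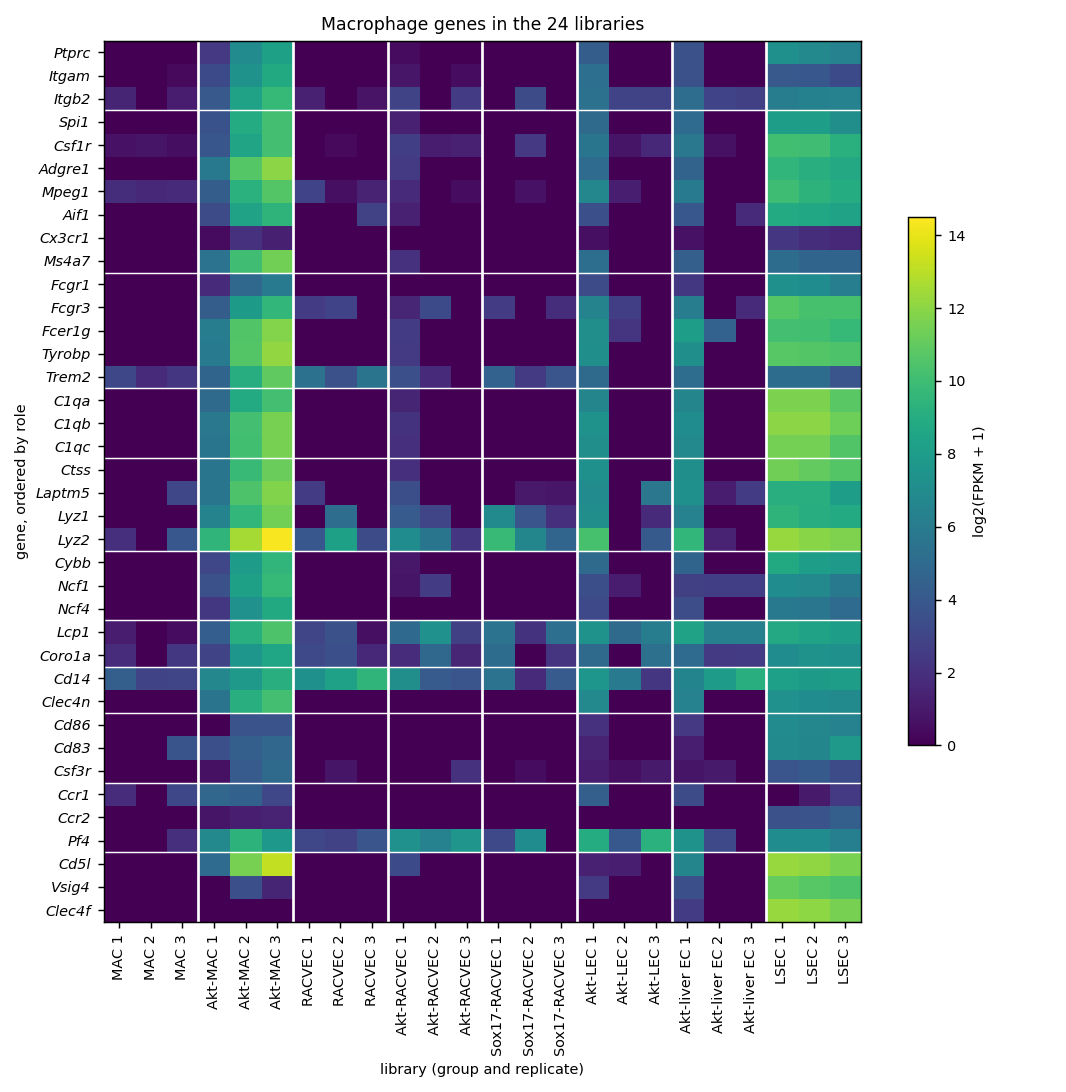
FPKM of the 38 macrophage genes with a row (vertical, grouped by role) in the 24 libraries (horizontal, grouped by cells), as log2(FPKM + 1). Most members are dark in MACs and RACVECs and bright in Akt-MAC 2, Akt-MAC 3 and all LSECs, while Cd14, Lcp1, Lyz2 and Pf4 are also above 0 elsewhere.

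The members varied together among the Akt-MAC libraries. Of the 32 members at 1 or more in both libraries, 31 were higher in Akt-MAC 2 than in Akt-MAC 1, by a median of 22.6-fold, and 31 were higher in Akt-MAC 3 than in Akt-MAC 1, by a median of 58.0-fold. Between Akt-MAC 3 and Akt-MAC 2 the median was 2.52-fold over 37 members, with an interquartile range of 2.02 to 2.85. The exception in the first pairs was Ccr1, at 0.809 and 0.281 of its level in Akt-MAC 1. Scaling each library to its own Tyrobp removed most of the difference in level. For the 31 members other than Tyrobp at 1 or more in all 3 Akt-MAC libraries, the highest library was a median of 55.6 times the lowest as deposited, and 1.41 times the lowest per unit of Tyrobp. After scaling, 21 of the 31 lay within 2-fold, and the other 10 were Ccr1, Pf4, Cd83, Cd14, Cd5l, Clec4n, Lyz2, Lyz1, Fcgr1 and Fcgr3. Per 100 FPKM of Tyrobp, Adgre1 was at 92.8, 106 and 89.9, Csf1r at 22.1, 22.4 and 25.4 and Ms4a7 at 72.8, 67.9 and 59.1 in the 3 Akt-MAC libraries. The proportions of these 3 transcripts were thus alike in libraries whose sums were as far apart as 1771 and 75601. LSECs were more even as deposited, with a median ratio of highest to lowest library of 1.73 over 35 members, and 1.45 per unit of Tyrobp.

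Akt-MACs were also higher than the mean of the other 6 cultured groups for 34 of the 37 members, where 12.1% of all genes were called higher and 4.41% lower, and no member was lower, also at an unadjusted p below 0.05. The 3 not called were Cd14, Vsig4 and Clec4f. Only 4 members were above every library of those groups in all Akt-MACs, against 1.78% of all genes, and 0 below every one, against 0.588%, since Akt-MAC 1 often lay below Akt-LEC 1 and Akt-liver EC 1. With these 2 libraries left out, a choice made after seeing the data, 36 of the 37 were called. The share of all genes called in that fit is not given here.

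LSECs were compared with Akt-liver ECs to ask what separates liver endothelium taken directly from the animal from that kept in culture with active Akt. Of the 37 members, 28 were called higher in LSECs and none lower, where 12.9% of all genes were called higher and 14.1% lower. None was lower at an unadjusted p below 0.05. The median log2 difference was 6.07 over the 36 members above 0 in both groups, against -0.08 over all genes, and in 32 of the 38 members every LSEC library was above every Akt-liver EC library, as in 24.9% of all genes, and in 0 below, as in 27.7%. Against the mean of the 6 cultured groups without Akt-MACs, LSECs were higher for 34 of the 37, where 16.1% of all genes were and 15.0% were lower. With Akt-LEC 1 and Akt-liver EC 1 left out they were higher for 36, and the share of all genes in that fit is not given here. Trem2, Pf4 and Ccr1 were not called in that comparison with all libraries. In 31 of the 38 every LSEC library was above every library of those groups, as in 12.3% of all genes, and in 0 below, as in 10.1%. LSECs are sorted as endothelium, so macrophage genes in them are not part of what the sort was meant to keep. Whether they come from macrophages in the sorted cells or from the endothelium was not tested.

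In LSECs 1 to 3 the C1q chains were among the highest members, with C1qb at 4095, 3987 and 2473, C1qa at 3243, 3172 and 1741 and C1qc at 2869, 2845 and 1521. Akt-liver EC 1 held 133, 94.5 and 112 of the same 3 genes, and Akt-liver ECs 2 and 3 held 0. Csf1r stood at 1120, 1071 and 578 in LSECs and at 55.9, 0.59 and 0 in Akt-liver ECs, a log2 difference of 7.62 ± 1.5 (adjusted p = 0.00075). For Tyrobp the values were 1681, 1601 and 1388 in LSECs against 149, 0 and 0, and for Spi1 267, 267 and 142 against 32.7, 0 and 0. Every LSEC library was above every Akt-liver EC library for these 6 genes. The 9 members not called were Ccr1, Cd14, Lcp1, Itgam, Itgb2, Trem2, Pf4, Ms4a7 and Coro1a. Cd14 was at 242 to 291 in LSECs and at 93.7, 261 and 568 in Akt-liver ECs, so the groups overlapped, and Itgam, at 15.8, 14.1 and 8.44 in LSECs, lay near the 10.9 of Akt-liver EC 1.

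The 3 Kupffer cell genes were high in LSECs and divided between the other libraries. Clec4f, a lectin of Kupffer cells, was at 4942, 4169 and 2965 in LSECs and at 0 in 20 of the other 21 libraries, the exception being Akt-liver EC 1 at 4.75. Its log2 difference between LSECs and Akt-liver ECs was 11.10 ± 0.46 (limma adjusted p = 1.8e-12). Clec4f passed the mean for testing only through LSECs, and its values of 0 elsewhere make its fitted spread small. The size of this p-value therefore carries little weight. Vsig4, a complement receptor, was at 2185, 1712 and 1418 in LSECs, at 10.7, 0 and 0 in Akt-liver ECs and at 0, 10.6 and 1.78 in Akt-MACs. Cd5l, a secreted scavenger protein also called AIM, was the exception to their division. It reached 4993, 4293 and 3035 in LSECs and 33.0, 2967 and 9098 in Akt-MACs, where it was called against MACs (adjusted p = 0.0049), but only 1.47 in Akt-LEC 1 and 94.7 in Akt-liver EC 1. The bases before the start of these 3 genes are shown because the genes parted between Akt-MACs and LSECs. They are from RefSeq on GRCm38.p6, Cd5l at chr3:87357631-87357880 on the plus strand, Vsig4 at chrX:96293439-96293688 and Clec4f at chr6:83656117-83656366 on the minus strand, with GAGGAA on either strand in capitals.
Cd5l: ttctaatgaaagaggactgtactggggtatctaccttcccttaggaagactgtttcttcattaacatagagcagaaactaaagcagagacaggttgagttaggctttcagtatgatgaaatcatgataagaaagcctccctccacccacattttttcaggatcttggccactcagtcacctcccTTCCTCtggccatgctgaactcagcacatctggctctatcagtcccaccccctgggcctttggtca
Vsig4: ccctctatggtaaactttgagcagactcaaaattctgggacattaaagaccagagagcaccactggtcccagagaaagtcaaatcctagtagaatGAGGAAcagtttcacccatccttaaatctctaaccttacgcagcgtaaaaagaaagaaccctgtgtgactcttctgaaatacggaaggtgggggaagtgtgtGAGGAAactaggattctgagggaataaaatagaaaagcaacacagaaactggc
Clec4f: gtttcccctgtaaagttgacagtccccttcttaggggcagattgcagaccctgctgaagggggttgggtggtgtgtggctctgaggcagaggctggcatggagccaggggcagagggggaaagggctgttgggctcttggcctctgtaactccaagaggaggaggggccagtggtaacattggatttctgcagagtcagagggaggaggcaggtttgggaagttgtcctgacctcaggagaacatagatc
The Cd5l match starts 66 bases before the gene's start and those of Vsig4 155 and 53 bases before it, and Clec4f holds no match in this window, which says nothing of PU.1 outside it.

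Akt-MACs and LSECs were then set side by side, as the groups that both hold the macrophage genes. Of the 37 members, 2 were called higher in Akt-MACs and 6 lower, where 18.0% of all genes were called higher and 11.6% lower. The members called higher were thus a smaller share than among all genes. Those called lower were near the share of all genes, so their count is not read as a feature of the members. The median log2 difference was -0.69 over 36 members above 0 in both, against 0.18 over all genes. Those called lower were Clec4f, Vsig4, Cd86, Cd83, Ccr2 and Fcgr1. Cd86 was at 128, 104 and 84.7 in LSECs, a log2 difference of -4.23 ± 0.79 (adjusted p = 0.00046). Cd83 was at 117, 100.4 and 223 in LSECs, with a difference of -2.88 ± 0.73 (adjusted p = 0.0048). Ccr2 was at 11.2, 11.9 and 19.8 in LSECs, and Fcgr1 at 155, 129 and 73.8. All LSEC libraries lay above all Akt-MAC libraries for these 6 genes and for C1qa and Fcgr3, 8 in all, where 23.0% of all genes did.

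Ms4a7 and Ccr1 were the members called higher in Akt-MACs. Ms4a7 was at 33.9, 24.2 and 24.3 in LSECs, below all Akt-MAC libraries, a log2 difference of 4.17 ± 1.40 (adjusted p = 0.026). Ccr1 was at 0, 1.06 and 4.49 in LSECs (2.96 ± 1.07, adjusted p = 0.037). Neither call was firm, since the number of members called higher was 0 without Akt-MAC 2, LSEC 1 or LSEC 2, was 1 without Akt-MAC 3 or LSEC 3, and rose to 5 without Akt-MAC 1. All Akt-MAC libraries lay above all LSEC libraries for these 2 members, where 32.4% of all genes did. Trem2, at 34.3, 33.4 and 13.3 in LSECs, and Itgam did not pass the adjusted test (log2 differences 3.54 ± 1.58 and 2.76 ± 1.29, adjusted p = 0.087 and 0.10).

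**Figure D3:**
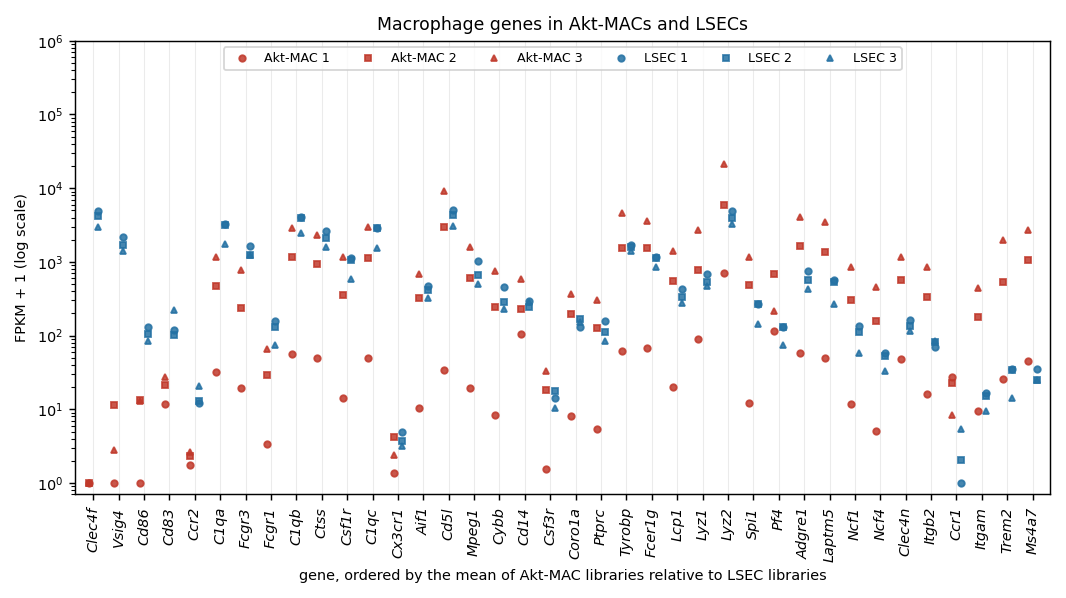
FPKM + 1 (log scale) of the 38 macrophage genes in the 3 Akt-MAC libraries (red) and the 3 LSEC libraries (blue), ordered by the difference of the group means. Clec4f and Vsig4 stand at the left with LSECs from 1418 to 4942, Trem2 and Ms4a7 at the right, and Akt-MAC 1 is the lowest Akt-MAC library for most genes.

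The members were also compared per 100 FPKM of Tyrobp, a scale on which 21 of 31 lay within 2-fold among the Akt-MAC libraries, as a description of which transcripts each group of macrophage RNA held. Of 36 members other than Tyrobp, 14 were higher in all Akt-MACs than in any LSEC library, where 15.6% of all genes were, and 12 were lower, where 5.32% were. The 14 higher were Adgre1, Spi1, Ms4a7, Itgam, Itgb2, Fcer1g, Trem2, Clec4n, Laptm5, Lyz1, Lyz2, Ncf1, Ncf4 and Lcp1. The 12 lower were Csf1r, Aif1, Fcgr1, Fcgr3, the 3 C1q chains, Ctss, Cd86, Cd5l, Vsig4 and Clec4f. Itgam stood at 13.7, 11.3 and 9.80 per 100 Tyrobp in Akt-MACs and at 0.940, 0.881 and 0.608 in LSECs, and Trem2 at 40.8, 34.0 and 43.2 against 2.04, 2.08 and 0.955. C1qa went the other way, at 50.9, 29.8 and 25.5 against 193, 198 and 125, and Csf1r, at 22.1 to 25.4, lay below the 41.6 to 66.9 of LSECs. Tyrobp is carried by other myeloid and natural killer cells too, so this scale is not specific to macrophages.

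The state of the macrophage RNA was read from lists of other genes. Over all genes, 2.59% were called higher and 0.214% lower in Akt-MACs against MACs. These shares were 12.9% and 14.1% in LSECs against Akt-liver ECs, and 18.0% and 11.6% in Akt-MACs against LSECs. Of 12 Kupffer cell markers, 11 were called higher in LSECs than in Akt-liver ECs, and 4 in Akt-MACs against MACs (Cd5l, Marco, Folr2 and Slc40a1). In the direct comparison 8 of the 12 were lower in Akt-MACs. Timd4, a receptor for dying cells, was at 439, 333 and 245 in LSECs and at 0, 1.68 and 0.64 in Akt-MACs. The haemoglobin scavenger Cd163 was at 285, 233 and 74.4 against 0, 0 and 1.08. Marco, a scavenger receptor for bacteria, ran against the rest of its list. It was at 0 in MACs, at 69.1, 2253 and 5714 in Akt-MACs and at 88.5, 77.4 and 58.7 in LSECs, though the difference between the last groups was not called (adjusted p = 0.071).

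Genes of resident tissue macrophages were read next, from a list that shares Timd4, Folr2 and Cd163 with the Kupffer cell markers. Of the 10 tested from a list of 12, 4 were called higher in Akt-MACs than in MACs (Fcrls, Pf4, Mrc1 and Folr2), and against LSECs 1 was higher and 5 lower. In LSECs against Akt-liver ECs 4 were higher. Fcrls, an Fc receptor-like gene best known from microglia, was the higher. It was at 0 in MACs, 30.4, 1009 and 1925 in Akt-MACs and 0, 0 and 1.67 in LSECs (log2 difference from LSECs 8.15 ± 1.01, adjusted p = 5.2e-06). Mrc1, the mannose receptor, was called higher in Akt-MACs than in MACs at 12.3, 71.4 and 261, but was at 3485 to 5135 in LSECs, whose endothelium also expresses it. The microglial markers did not follow Fcrls. Of 7 tested, 1 was called higher in Akt-MACs than in MACs, P2ry12 at 10.4, 9.89 and 8.49, and against LSECs 1 (Tmem119) was higher and 3 were lower. Tmem119 was not called against MACs (log2 difference -1.42). Per 100 FPKM of Tyrobp it was at 230, 1.25 and 0.541 in Akt-MACs 1 to 3, so it did not follow the macrophage genes. Against the mean of the other cultured groups, 3 of the 7 were higher in Akt-MACs and 0 lower, where 12.1% and 4.41% of all genes were. Siglech was at 0 in all 6 MAC and Akt-MAC libraries, and 4 of the 7 were called higher in LSECs than in Akt-liver ECs.

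Lipid-associated macrophage genes summed to 34952 to 75397 FPKM in Akt-MACs, 25008 to 41352 in MACs and 36897 to 41912 in LSECs. Of the 12 genes of that list, limma called 0 between Akt-MACs and MACs, with 2 higher at an unadjusted p below 0.05. Against the mean of the other cultured groups, 7 of the 12 were called higher in Akt-MACs (Spp1, Trem2, Apoe, Cd36, Lpl, Ctsb and Ctsd). In that comparison 1 was lower (Fabp4), where 12.1% of all genes were higher and 4.41% lower. Trem2 is also a member. Between Akt-MACs and LSECs 3 were called higher (Gpnmb, Spp1 and Lgals3) and 1 lower (Fabp4). Gpnmb, a membrane glycoprotein of lysosomes, was at 1238, 212 and 733 in MACs, 545, 2084 and 6442 in Akt-MACs and at most 0.81 in LSECs, and Spp1 (osteopontin) was at 8304 to 25048 in MACs. In the osteoclast and fused macrophage list, 1 of 8 tested was called higher in Akt-MACs than in MACs, 2 higher than in LSECs (Mmp12 and Atp6v0d2), and 2 lower in LSECs than in Akt-liver ECs. Against the other cultured groups, 4 of the 8 were higher in Akt-MACs and 1 lower. Mmp12, macrophage elastase and the gene called against MACs, was at 0, 0 and 1.31 in MACs and 44.3, 400 and 438 in Akt-MACs (adjusted p = 0.032), and at 1.62 to 2.70 in LSECs.

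Activation and antigen presentation genes were higher in LSECs. Of 11 classically activated genes tested, 7 were called higher in LSECs than in Akt-liver ECs and 1 (Tnf) in Akt-MACs against MACs. Against LSECs 4 were lower in Akt-MACs and 1 (Ptgs2) higher. Ptgs2 was not called against MACs (log2 difference 0.73). Per 100 FPKM of Tyrobp it was at 2579, 12.6 and 4.88 in Akt-MACs 1 to 3, so it did not follow the macrophage genes. The cytokine Il1b was at 1008, 894 and 1024 in LSECs, at 0, 15.6 and 9.22 in Akt-MACs and at 0 in MACs. Tnf was at 298, 263 and 138 in LSECs and 2.95, 71.0 and 235 in Akt-MACs. Of the 9 antigen presentation genes tested, 7 were called higher in LSECs than in Akt-liver ECs, and 7 lower in Akt-MACs than in LSECs. In limma 0 were called in Akt-MACs against MACs, with 3 higher at an unadjusted p below 0.05. H2-Aa, a chain of MHC class II, was at 1400, 1199 and 1401 in LSECs and at 0, 6.24 and 3.35 in Akt-MACs, and Cd74, its chaperone, at 2497, 2496 and 1458 against 4.38, 41.9 and 8.05. Among alternatively activated genes, 6 of 8 tested were called higher in LSECs than in Akt-liver ECs, Mrc1 alone in Akt-MACs against MACs, and 6 lower in Akt-MACs than in LSECs. Arg1 was at 5.64, 19.1 and 7.27 in Akt-MACs and at 178, 152 and 386 in LSECs. Hepatocyte markers summed to 3274, 2125 and 11924 in LSECs 1 to 3, and the part of hepatocytes in Arg1 was not tested. Of 12 monocyte genes, 7 were called higher in LSECs than in Akt-liver ECs. In Akt-MACs 2 were called higher than in MACs (Treml4 and Ccr2), and 6 lower than in LSECs. The Ccr2 call carries little weight, at 0.78 to 1.64 FPKM in Akt-MACs. Ly6c2 was at 326, 431 and 44.8 in MACs and at 208, 21.1 and 3.45 in Akt-MACs and was not called.

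**Figure D4:**
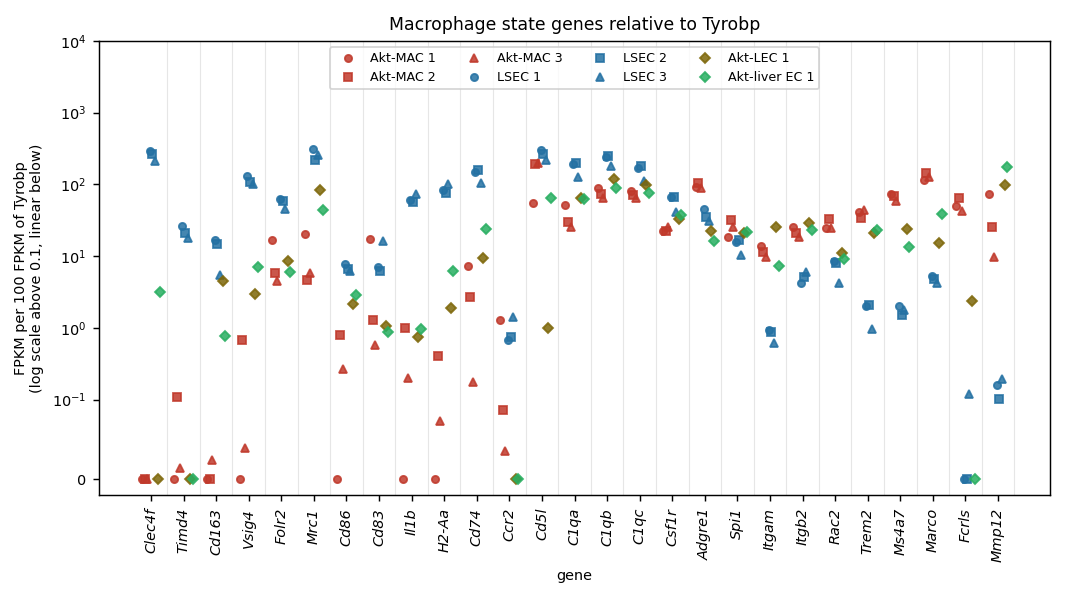
Levels of macrophage and state genes per 100 FPKM of Tyrobp (log scale above 0.1, linear below) in Akt-MACs (red), LSECs (blue), Akt-LEC 1 (brown) and Akt-liver EC 1 (green). Clec4f, Timd4, Vsig4 and Il1b are highest in LSECs, while Itgam, Trem2, Ms4a7, Marco and Fcrls are higher in all Akt-MACs than in all LSECs.

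The signalling apparatus was largely shared. Of 11 Fc receptor and ITAM signalling genes tested, 7 were called higher in Akt-MACs than in MACs and 9 in LSECs than in Akt-liver ECs. Fcgr4, another IgG receptor, was at 0 in MACs and at 5.97, 150 and 258 in Akt-MACs. Against LSECs 3 of the 11 were lower in Akt-MACs, with Fcgr2b, which liver sinusoidal endothelium also expresses, the lowest of them. Of 14 macrophage transcription factors, Spi1 and Irf8 were called higher in Akt-MACs than in MACs, and Irf8 was at 0 in MACs and 1.92, 57.7 and 149 in Akt-MACs. Of the same 14, 6 were higher in LSECs than in Akt-liver ECs, and 3 were higher (Runx1, Cebpb and Mitf) and 2 lower (Tfec and Spic) in Akt-MACs than in LSECs. Against the mean of the other cultured groups, 7 of the 14 were higher in Akt-MACs and 0 lower, where 12.1% and 4.41% of all genes were. Of 10 ligands and receptors of the Csf family, Csf1r, Csf2rb and Csf3r were called higher in Akt-MACs than in MACs, and 3 were higher and 2 lower in LSECs than in Akt-liver ECs. Il34, a further ligand of Csf1r, was called higher in Akt-MACs than in LSECs and Flt3l lower. Il34 was not called against MACs, and per 100 FPKM of Tyrobp it was at 123, 11.3 and 0.234 in Akt-MACs 1 to 3. The ligand Csf1, named after its values were seen, was present in every group, at 213, 994 and 674 in MACs, at 488, 865 and 1816 in Akt-MACs and at 180 to 279 in LSECs.

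Akt-LEC 1 and Akt-liver EC 1 held macrophage RNA with features of both. Their members stood at a median of 12% and 9.04% of the LSEC mean. Per 100 Tyrobp, Itgam was at 25.7 and 7.30, Trem2 at 20.9 and 23.2 and Ms4a7 at 24.1 and 13.2, between or above the Akt-MAC and LSEC values, and Vsig4 at 2.99 and 7.15 was above Akt-MACs and below LSECs. Cd5l differed between them, at 0.982 in Akt-LEC 1 and 63.4 in Akt-liver EC 1. Epithelial markers summed to 294 in Akt-LEC 1 and 2130 in Akt-liver EC 1, against 6.75 to 35.2 in the other libraries of their groups. Mesenchymal markers summed to 5594 in Akt-LEC 1 against 42.2 and 180 in the other Akt-LECs, but to 3292 in Akt-liver EC 1 against 2389 and 2755 in the other Akt-liver ECs. The part of these in the result was not tested.

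Markers of other blood cells were read beside the members. In Akt-MACs 5 of 9 neutrophil markers, 6 of 8 mast cell, 5 of 8 B cell and 8 of 10 T and NK cell markers were at 0 in all libraries, the defining Mpo, Elane, Cpa3, Cd79a and Cd3g among them, and limma called 0 of these lists' genes against MACs. At an unadjusted p below 0.05, 3 of 6 B cell and 1 of 6 T and NK cell genes tested were higher. Against the mean of the other cultured groups, 3 of the 6 B cell genes (Blnk, Cd79b and Cd22) and 1 T and NK cell gene (Cd4) were called higher. In that comparison 1 T and NK cell gene (Lck) and 1 mast cell gene (Hdc) were lower. Over all genes 12.1% were called higher and 4.41% lower. The summed levels were 27.3 to 946 FPKM for neutrophil markers, nearly all of the highest being S100a8 (934 in Akt-MAC 1), 1.68 to 15.5 for mast cell, 17.5 to 261 for B cell and 1.38 to 5.84 for T and NK cell markers. The B cell sum was mostly Blnk (17.5, 139 and 241), a signalling adaptor that macrophages share and that was at 184 in MAC 1. Of 7 platelet markers tested, only Pf4 itself was called against MACs, and Pf4 and Treml1 were called higher against the other cultured groups. Endothelial markers summed to 23.9 to 56.8 FPKM in Akt-MACs and 15477 to 18058 in LSECs, and mesenchymal markers to 3570 to 10208 and 366 to 1034, so mesenchymal markers outweighed endothelial ones in Akt-MACs and the reverse held in LSECs. Erythroid markers summed to 1.87 to 79.9 in Akt-MACs and 12120 to 13940 in LSECs, with Hba-a1 at 10134 to 10731. LSECs further held hepatocyte markers (2125 to 11924, Alb 1211 to 7975), B cell markers (109 to 158, Cd79a 15.8 to 25.4), T and NK cell markers (127 to 144, Cd3g 15.8 to 22.6), mast cell markers (503 to 912) and neutrophil markers (32.6 to 158). None of 8 B cell, 10 T and NK cell, 7 erythroid or 8 hepatocyte markers was at 0 in all LSEC libraries. Epithelial markers summed to 31.5 to 243 in Akt-MACs and 39.2 to 121 in LSECs. The part of these cells in the LSEC levels of shared genes was not tested.

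Conversion by the Ets factors carried few members. Of the 37, 1 was called higher in RACVECs than in MACs, where 1.36% of all genes were and 1.35% were lower, and none lower, also at an unadjusted p below 0.05. It was Cd14, at 155, 317 and 724 in RACVECs against 6.83 to 20.3 in MACs (log2 difference 4.90 ± 1.19, adjusted p = 0.030), and the call was lost without RACVEC 2, RACVEC 3, MAC 2 or MAC 3. All RACVEC libraries lay above all MAC libraries for 3 members and below them for 1, where 11.4% and 10.5% of all genes did. Akt-RACVECs were lower than Akt-MACs for 31 of the 37, where 13.4% of all genes were lower and 6.15% higher, and all libraries lay lower for 30 of the 38 and higher for 0, where 22.0% and 15.3% of all genes did, with a median log2 difference of -6.69 over 28 members above 0 in both. Cd14, Pf4, Lcp1, Coro1a, Vsig4 and Clec4f were not called, and a fit of these groups alone called 9 and the criterion of the study's methods 1. In limma, 0 members were called between Akt-RACVECs and RACVECs, where 0.221% of all genes were higher and 0.0401% lower, with 1 member higher and 1 lower at an unadjusted p below 0.05 and 1 higher by the criterion of the study's methods. All Akt-RACVEC libraries lay above all RACVEC libraries for 2 members and below them for 2, where 10.6% and 9.15% of all genes did. Between Sox17-RACVECs and RACVECs limma also called 0, where 0.0% of all genes were higher and 0.00668% lower, with 0 higher and 1 lower (Cd14) at an unadjusted p below 0.05 and 0 by the criterion. All Sox17-RACVEC libraries lay above all RACVEC libraries for 0 members and below them for 1, where 4.05% and 6.55% of all genes did.

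The Akt effect in MACs was set against that in RACVECs in a single test of the difference. It called 0 of the 37 members, where 0.0936% of all genes were called higher and 0.00668% lower, with 33 members at an unadjusted p below 0.05 and the smallest adjusted p at 0.091, for Cd14. Without Akt-MAC 1 the same test called 27, and the share of all genes called in that fit is not given here.

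A few members were present where the others were not. In the 15 libraries with Tyrobp and all 3 C1q chains below 1, 19 members were below 1 in every library. Tyrobp and the C1q chains are among the 19 by that choice of libraries, and Ptprc, Adgre1, Spi1, Cybb, Ctss and Ms4a7 are among the rest. Cd14 reached an FPKM of 10 in 11 of the 15, Lcp1 and Lyz2 in 8, Pf4 in 6, Trem2 in 5, Coro1a in 4 and Lyz1 in 3, and Cd83, Fcer1g and Laptm5 in 1 each. Lyz2 was at 14.2, 304 and 8.95 in RACVECs and at 916, 98.1 and 25.8 in Sox17-RACVECs. Pf4 was at 158, 84.3 and 188 in Akt-RACVECs and at 512, 14.8 and 624 in Akt-LECs, where the highest value lay in a library without Tyrobp. Trem2 was at 42.2, 11.3 and 47.4 in RACVECs, near or above the 13.3 to 34.3 of LSECs. These members were thus found in libraries where Tyrobp and C1q were below 1.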

How the data were processed

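RNA with poly(A) tails from 24 libraries was sequenced as paired reads. The authors deposited FPKM, which they made by aligning reads to mm9 with TopHat and estimating 1 value per RefSeq transcript with Cufflinks, with upper-quartile normalisation and correction of sequence bias. Versions, the annotation release and numbers of fragments are not given in the sources used here, so depth and counting precision are unknown. Of 27583 transcripts per library, 26930 were joined to a current symbol and summed. Groups came from the labels. Replicate libraries carry no pairing in the labels, and p-values measure the spread between these libraries.

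Differences were fitted in limma 3.58.1 (R 4.3.3) on log2(FPKM + 1) over 8 groups with a trended prior, two-sided, with Benjamini-Hochberg adjustment over 14964 genes of mean FPKM at least 1. A fold change on this scale understates the change of low genes. The fit was tested on simulated data, the outcome is not reported here, and no result above rests on it. Alternatives were other pseudocounts (0.1 and 10), filters, scaling by the median shift, fits of the compared groups alone, a replicate block, each library left out, and the criterion of the study's methods (averaged FPKM and an unadjusted p). The text names all 40 members, and state genes called in Akt-MACs against MACs, LSECs against Akt-liver ECs or Akt-MACs against LSECs, at most 4 per list and direction by size, or defining and listed at 0. The members and lists were chosen with earlier results of these data known. Some genes of the lists are not reported here.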

Additional observations from a re-analysis of the deposited data

How the results depend on the processing

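Of 3330 alternative values of the 166 called member results, 2962 kept their direction and call, 368 kept their direction and lost the call, and 0 reversed. The number of members called higher in Akt-MACs than in MACs (30) was 0 with the 2 groups fitted alone, 1 by the criterion of the study's methods, and 4 to 34 with a library left out, the lowest without Akt-MAC 2. The number higher in Akt-MACs than in LSECs (2) was 0 with a pseudocount of 0.1, 4 with 10, 1 with a mean FPKM of at least 10, 1 with the groups alone, 0 by the criterion, and 0 to 5 with a library left out. The number lower in Akt-RACVECs than in Akt-MACs (31) was 9 with the groups alone, 1 by the criterion, and 25 to 33 with a library left out. The call in RACVECs against MACs (1) was lost with the groups alone (0), and the range without a library was 0 to 1. Akt-RACVECs against RACVECs (0) gave 1 by the criterion. The difference of the Akt effects (0) gave 1 with a pseudocount of 0.1, 1 with the groups alone, and 0 to 27 with a library left out. LSECs against Akt-liver ECs (28) ran from 23 to 33 with a library left out. The causes were not tested, and the shares of all genes called under these alternatives are not given here. Scaling each library by its median shift, which ran from -0.158 to 0.130 on the log2 scale, left 29 higher in Akt-MACs than in MACs and changed no other of these counts. Correlations of same-numbered libraries ran from -0.20 to 0.21, with no comparison in which every pair passed 0.1. The labels give no pairing, and so few correlations cannot show whether same-numbered libraries share an isolate. With the replicate block, 0 members were called higher in Akt-MACs than in MACs, 0 higher in Akt-MACs than in LSECs, 0 lower in Akt-RACVECs than in Akt-MACs, 0 in RACVECs against MACs and 21 in LSECs against Akt-liver ECs. Depth could not be weighed, since no fragment numbers were used.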
